A study of Mus musculus with 6 samples.

Results

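Junction-only alternative acceptor events are places where introns that start at a single donor site end at different acceptor sites, scored from reads that cross the exon junctions and not from reads inside the exons. They were taken as every event of that type in the authors' splicing table, which gave 1675 of 10376 events in mouse bone marrow-derived macrophages. The same table holds 1345 alternative acceptor events scored with exon reads and 1300 junction-only alternative donor events. RNA was sequenced from cells of wild-type C57BL/6 mice, in 3 libraries from animals exposed to room air and 3 from animals exposed to cigarette smoke. Marrow depleted of red blood cells was grown into macrophages in medium with L929 cell supernatant, which supplies macrophage growth factor, and all 6 cultures were harvested on day 11. The question is whether acceptor choice in macrophages grown from marrow depends on what the donor mouse had breathed. Both groups were grown alike and neither carried a transgene or deletion according to the labels. Sex, age, smoke dose and length of exposure are not given in the sources used here, and nothing states that each numbered library came from its own animal, so p-values measure only the spread between these samples.

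An acceptor is the end of an intron, marked by the bases AG, where the spliceosome joins the next exon. The U2AF proteins recognise the pyrimidine stretch and the AG, and where acceptors stand a few bases apart the spliceosome may use either. Acceptors separated by a single codon, called tandem or NAGNAG acceptors, add or leave out an amino acid in coding sequence without shifting the reading frame. The proximal acceptor is the one nearer to the donor and keeps the longer exon, and the distal acceptor is the one farther away. Each event has an inclusion level in each library, the percent of the event's junction signal assigned to its inclusion junction. In all 1089 events with 1 competing junction (65.0% of the events), the inclusion junction was the one to the proximal acceptor. The other 586 events had 2 or more competing junctions.

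No other single distance between acceptors was as common as 3 bases, and the sequences of 9 such tandem acceptors are shown with the 4 spellings found between them. Each was read from a GENCODE M21 transcript on GRCm38, 5′ to 3′ in the sense of the gene. The capitals mark the segment between the proximal and the distal acceptor, which only the proximal isoform keeps. The 15 bases before it are the end of the upstream exon at the donor, and the 15 bases after it open the shared part of the downstream exon. Positions give the intron of the proximal acceptor.
Rap1gds1 (chr3:138955462-138956193, minus strand): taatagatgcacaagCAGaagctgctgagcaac
Trip10 (chr17:57261789-57262353, plus strand): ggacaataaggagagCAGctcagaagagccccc
Scyl2 (chr10:89645558-89645676, minus strand): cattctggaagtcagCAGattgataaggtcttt
Rasgef1b (chr5:99234692-99240822, minus strand): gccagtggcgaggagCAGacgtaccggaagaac
Cic (chr7:25290966-25291051, plus strand): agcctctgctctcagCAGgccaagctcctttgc
Map2k2 (chr10:81119704-81121042, plus strand): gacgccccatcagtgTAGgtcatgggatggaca
Tcea1 (chr1:4886832-4889456, plus strand): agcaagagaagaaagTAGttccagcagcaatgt
Psen2 (chr1:180229488-180229841, minus strand): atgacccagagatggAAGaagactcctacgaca
Pcyt2 (chr11:120613424-120613640, minus strand): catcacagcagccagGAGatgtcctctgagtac
The first 6 belong to events described below, all in coding regions. Tcea1, Psen2 and Pcyt2 were chosen after their values were seen, as the events nearest the median level of the TAG, AAG and GAG spellings.

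The distance between competing acceptors ranged from neighbouring bases to many kilobases, with a median of 27 bases to the nearest competitor. In 404 events (24.1%) the nearest competing acceptor was 3 bases away, against 50 events (2.99%) at 4 bases. The peak at 3 bases was also present in the acceptors scored with exon reads (290 of 1345, 21.6%), but junction-only donors had 21 of 1300 events there (1.62%) and 43 (3.31%) at 4 bases. A further 33 events had acceptors 1 or 2 bases apart, 212 were 4 to 12 bases apart, 527 were 13 to 100, 258 were over 100 and up to 1000, and 241 lay more than 1000 bases apart. Known events, those the authors marked as annotated, were 608 of the 1675 (36.3%). Of them 190 (31.3%) were tandem acceptors at 3 bases, against 214 of the 1067 events they did not mark so (20.1%), called unlisted here.

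**Figure D1:**
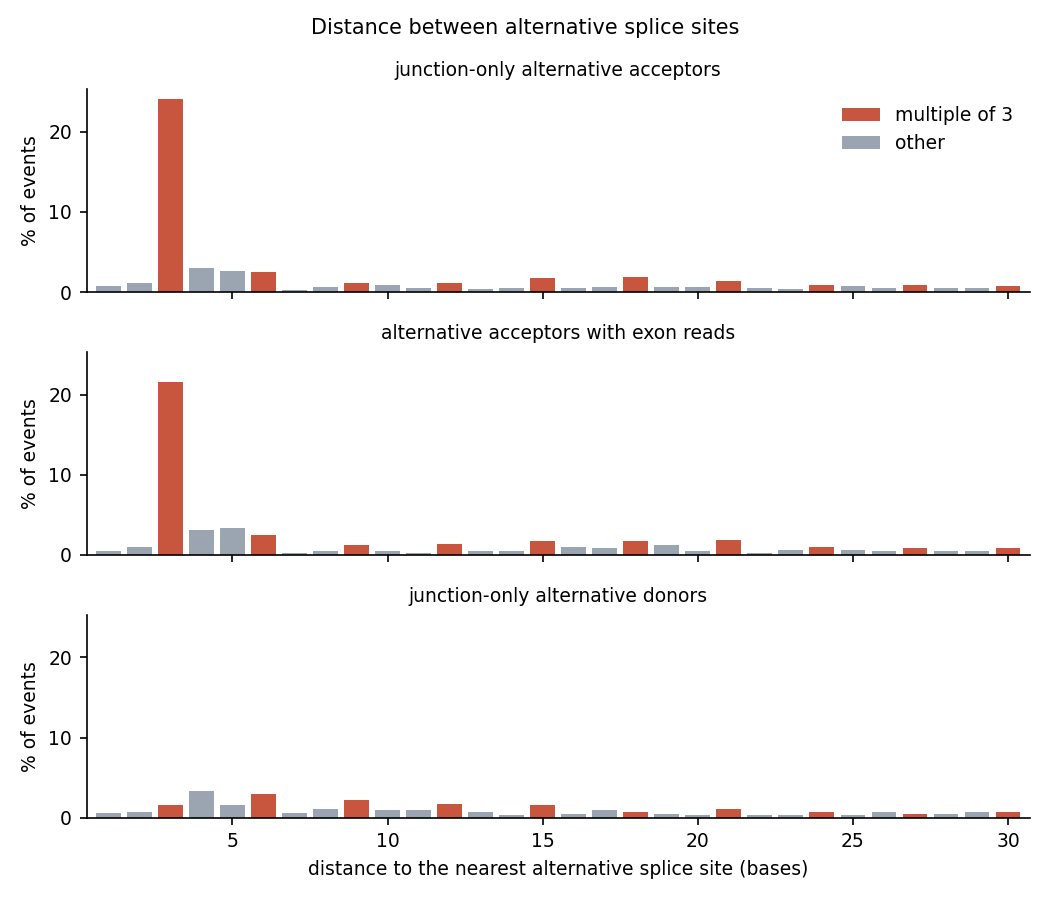
Percent of events (vertical axis) by the distance in bases to the nearest competing site (horizontal axis) for junction-only acceptors, acceptors with exon reads and junction-only donors. Both acceptor types peak at 3 bases, with 24.1% and 21.6% of their events, where donors have 1.62%.

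The marks largely matched the reference annotation. In all 608 known events every junction was an intron of GENCODE M21, and in 1010 of the 1067 unlisted events (94.7%) at least 1 junction was not annotated. The donor itself was an annotated one in 1658 events (99.0%). The events used 1349 donors, of which 231 carried 2 or more events, and the 557 events at those donors are not independent of each other, because a rise of one junction lowers the share of the others. By position, 1480 events (88.4%) lay in the coding span of a transcript, 130 in 5′ UTRs, 32 in 3′ UTRs and 15 in noncoding transcripts, and 18 matched no annotated transcript.

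In coding sequence the distances kept the reading frame more often than in untranslated sequence. Among coding events with acceptors at most 100 bases apart, 685 of 1062 (64.5%) had a distance divisible by 3, against 51 of 96 (53.1%) in UTRs. Without the tandem acceptors at 3 bases the shares were 320 of 697 (45.9%) in coding regions and 19 of 64 (29.7%) in UTRs. These are descriptions of events that share donors and genes, and the difference was not tested.

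The events lay in 1105 host genes, of which 753 had 1 event and 18 had 5 or more. Sp100, which encodes an interferon-induced nuclear body protein, had 9 events. Pik3cd, the leukocyte phosphoinositide 3-kinase subunit, and Srrm1, a splicing coactivator, had 8 each. Arhgap1 and Fes, a tyrosine kinase of myeloid cells, had 7 each. Mndal and Ifi207, with 6 and 5 events, belong to a cluster of closely similar interferon-inducible genes, and reads of near-identical copies may have been shared between them.

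The inclusion levels gathered at the ends of the scale. Of the 953 events with a value in all 6 libraries, 281 had a mean level under 10%, 336 had one over 90% and 336 lay between. Known events were in the middle range in 193 of 369 cases (52.3%) and unlisted events in 143 of 584 (24.5%). With 1 competing junction, the median level of the proximal acceptor was 81.4% at 3 bases, 95.4% at 4 to 12 bases, 86.5% at 13 to 100, 28.3% over 100 and up to 1000, and 4.45% beyond 1000 bases. The proximal site thus held most of the signal in the median event up to 100 bases. At longer distances known and unlisted events differed. Over 100 and up to 1000 bases the median was 64.8% in known events (n = 40) and 6.90% in unlisted events (n = 45). Beyond 1000 bases it was 45.8% in known events (n = 28) and 2.56% in unlisted events (n = 44). The distal site thus held most at both longer distances in unlisted events, but only beyond 1000 bases in known events.

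For the tandem acceptors, the first base of the 3-base segment went with the level. The segment could be read for 270 of the 288 tandem events with 1 competing junction. It was CAG in 176 (65.2%), AAG in 55, TAG in 29 and GAG in 10. With values in all 6 libraries, the median level of the proximal acceptor was 71.8% for CAG (n = 111 events), 88.2% for TAG (n = 17), 95.3% for AAG (n = 33) and 98.1% for GAG (n = 5). In these segments the capitals spell the distal acceptor, so the proximal acceptor held the least where the distal one was CAG.

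The CAG events also spread most, from 6.09% to 98.4%, and 36 of 111 were under 50%. Of the AAG events, 1 of 33 was under 50%. The spelling did not order single events: Map2k2, printed above with TAG, had the lowest mean level of the 17 TAG events, 29.1%, below all 5 CAG acceptors printed. The median was lower for CAG than for TAG and lower for TAG than for AAG in each of the 6 libraries, and GAG stood above AAG in all but cigarette smoke replicate 1. Known events alone gave 67.0% for CAG, 84.0% for TAG and 91.6% for AAG, and unlisted events gave 92.5%, 94.1% and 96.4%. The levels share their libraries, and no test was made on them.

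**Figure D2:**
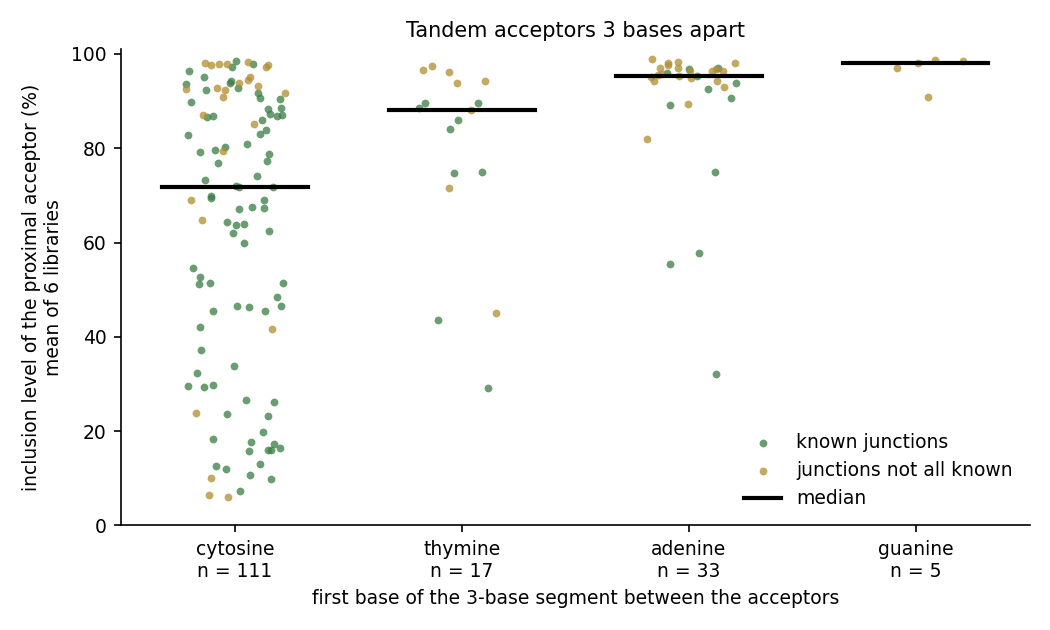
Inclusion level of the proximal acceptor in percent, as the mean of 6 libraries (vertical axis), for tandem acceptors grouped by the first base of the segment between them (horizontal axis). Each point is an event, coloured by whether all its junctions are known, and bars are medians, which run from 71.8% with cytosine to 98.1% with guanine.

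Longer segments ended in AG as well. All 502 segments of more than 3 bases that a transcript covers ended in AG on the sense strand, the last bases of an intron that would end at the distal acceptor. The next 3 bases of the shared exon ended in AG in 40 of 754 events with acceptors that far apart (5.31%). Since acceptors are marked by AG, these shares check the positions read and are not a result about the events. The triplet ahead of the proximal acceptor could be read in only 52 tandem events, where another transcript keeps it as exon, and was CAG in 29, TAG in 15 and AAG in 8.

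The libraries differed in how many events they could score, and cigarette smoke replicate 1 stood apart. It lacked a value in 648 of the 1675 events (38.7%), against 0 to 81 in the room air libraries and 21 and 44 in the other smoke libraries. Values of exactly 0% or 100% made up 25.5% to 40.3% of the values of a library, with cigarette smoke replicates 1 and 2 the highest. Read counts were not used here, so the depth behind a level is unknown and no interval for a single level is given. All 6 values were present in 56.9% of the events, close to the 57.2% over all event types.

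In those 953 events the 6 libraries had mean levels between 53.2% and 53.6%. Pearson's r across the 953 events, which share libraries and genes, was 0.984 to 0.994 for pairs within a group and 0.984 to 0.994 for pairs between groups. The median absolute difference of a pair was 2.23 to 5.0 percentage points within groups and 2.34 to 5.0 between them. No pair looked like a library deposited more than once, with at most 1.32% identical values among intermediate levels. The cultures carried macrophage RNA: all 10 macrophage markers were listed in the authors' deposited expression table, at 401 to 23168 normalized counts in room air and 348 to 24772 in cigarette smoke. One of them, Spi1, a transcription factor of myeloid cells, was higher after smoke in that table (1146 and 1526 normalized counts, adjusted p 0.00813). Of 4 dendritic cell markers listed, 1 carried nearly all of the sum, 31.7 of 32.9 in room air and 107.8 of 108.8 in cigarette smoke. The 6 stromal markers summed to 45.6 and 10.6. None of the markers of either type passed an adjusted p under 0.05 in the authors' deposited table, and their part in any splicing difference was not tested. The 4 of 10 neutrophil markers that were listed were at most 0.313. The B cell markers were at most 6.06, the T cell markers at most 29.0 and the erythroid markers at most 162, and the single mast cell marker listed was at 54.5 and 47.9.

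After smoke, acceptor levels lay close to those in room air. The median difference, smoke minus air, was -0.02 percentage points over the 953 events, with quartiles of -2.26 and 2.39. The mean was lower after smoke in 477 events and higher in 476. Over all 5933 events of every type with 6 values, the median difference was -1.95 points. The difference was under 5 points in 821 of the 953 events (86.1%) and reached 10 points in 13. The median SD over the 3 libraries was 2.48 points in room air and 3.61 in cigarette smoke, so most differences were of the size of the spread between replicates.

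**Figure D3:**
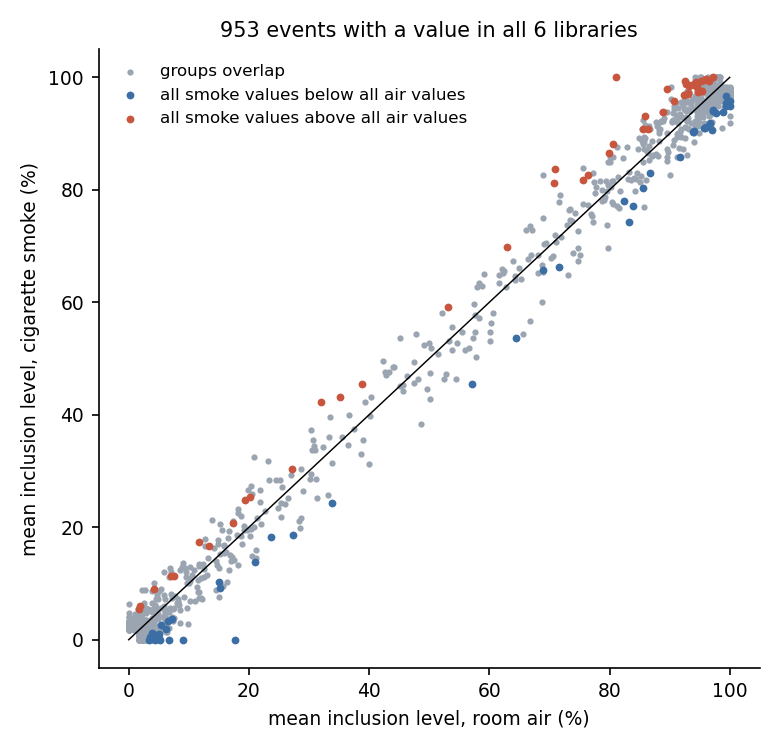
Mean inclusion level in percent after cigarette smoke (vertical axis) against room air (horizontal axis) for the 953 events with 6 values, with the line of equal levels. Coloured points are the 51 events in which all smoke values lay below all air values and the 48 in which they lay above.

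No event passed an adjusted p under 0.05 in limma's moderated test on the log2 odds of inclusion, with Benjamini-Hochberg adjustment over all 10376 events (background 0% of all events). The lowest adjusted p was 0.128, and an adjusted p above the threshold does not show that the levels were alike. At an unadjusted p under 0.05, limma gave 79 of the 1675 events (4.72%), against a background of 10.8% over all events. Of these, 46 were lower after smoke (2.75%, background 9.29%) and 33 were higher (1.97%, background 1.55%). The share with a low p was below that of the whole table, in which 964 of the 1125 low-p events were lower after smoke.

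Groups did not overlap in 99 of the 953 events: 51 lay entirely lower after smoke (5.35%, background 19.3%) and 48 entirely higher (5.04%, background 3.84%). The authors' deposited p-values from JuncBASE were under 0.05 for 50 of the events (2.99%, background 4.15%). None of the authors' corrected p-values was under 0.05, and the lowest was 0.634. Of the 79 events with a low p in limma, 36 had every value of a group at 0% or 100%, and 34 had no value in cigarette smoke replicate 1. Without cigarette smoke replicate 3, limma gave 50 of 974 events past the adjusted threshold (5.13%, against 12.0% of all events in that setting), and in all 50 a group stood wholly at 0% or 100%. The low unadjusted p-values were then 95 of 974 (9.75%, against 21.5% of all events).

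**Figure D4:**
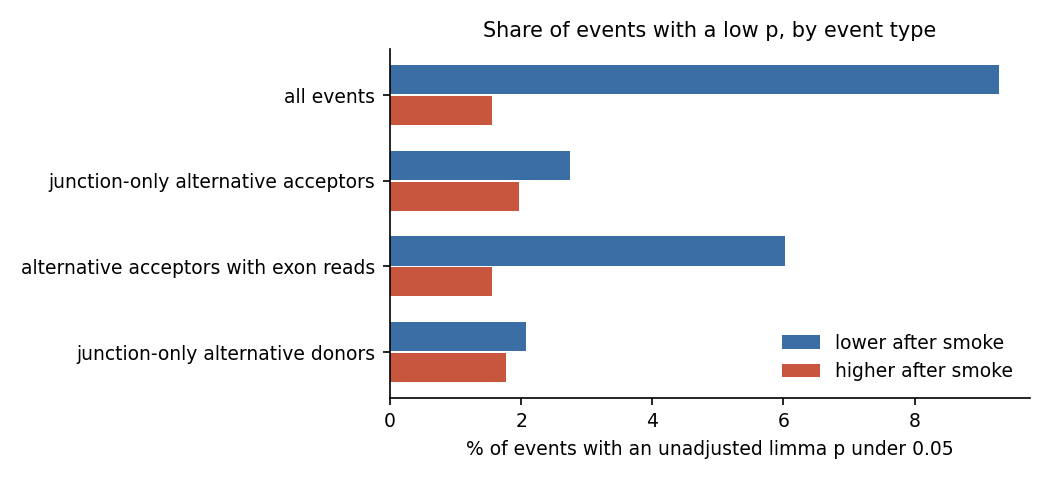
Percent of events with an unadjusted limma p under 0.05 (horizontal axis) by event type, split into lower and higher after cigarette smoke. Junction-only acceptors have 2.75% lower and 1.97% higher, where all events have 9.29% and 1.55%.

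The acceptors scored with exon reads had 102 of 1345 events with a low p (7.58%), 81 lower and 21 higher, and junction-only donors 50 of 1300 (3.85%), 27 lower and 23 higher. In 795 events the same inclusion and exclusion junctions were scored both ways, which is 47.5% of the junction-only events and 59.1% of those with exon reads. A low p was found in 30 of the 795 by junctions only, 22 lower and 8 higher, and in 46 with exon reads, 40 lower and 6 higher, where the background over all events is 10.8%, with 9.29% lower and 1.55% higher. Both forms had all 6 values in 427 of the 795. Groups lay entirely lower after smoke in 25 of the 427 by junctions only and in 49 with exon reads (background 19.3%), and entirely higher in 17 and 21 (background 3.84%). The lower counts of both forms, by low p and by overlap, are below the shares over all events.

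Of the distance classes with 35 or more events, the smoke-minus-air medians of the forms lay farthest apart beyond 1000 bases. With acceptors over 1000 bases apart (35 events), the median difference, smoke minus air, was 0.06 points by junctions only and -3.25 points with exon reads, and the mean was lower after smoke in 45.7% and 74.3% of them. For the 122 tandem events at 3 bases, 47.5% and 50.8% were lower, and the exon-read level minus the junction-only level was -7.25 points in the median. These are the same libraries scored differently, and the difference between the forms was not tested.

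The lowest p belonged to a pair of events at 1 donor on chromosome 3 (plus strand, intron start 130876880) that overlap Gm43350 and match no annotated transcript. Use of the acceptor at intron end 130879025 was 81.25%, 84.0% and 77.78% in room air, and all 3 libraries from smoke-exposed mice had 100%. The groups did not overlap. The log2 odds difference was 4.61 (SE 0.44), with an adjusted p of 0.128 in limma. The acceptor at intron end 130876965 held 18.75%, 12.0% and 22.22% in room air and 0% in every smoke library. A further competing junction of both events ends at 130884902. Gm43350 itself was listed at 0.754 normalized counts in room air and 0.411 in smoke in the authors' deposited table, so the name marks the place and not a measured transcript. This pair did pass the adjusted threshold in limma when the test kept only events with 6 values (adjusted p = 0.04).

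Sharpin encodes a subunit of the linear ubiquitin assembly complex, which acts in NF-kB signalling. At its donor on chromosome 15 (minus strand) neighbouring known acceptors stand 10 bases apart. The sequence is printed here to show the segment (capitals) that only the proximal isoform keeps and that shifts the reading frame.
Sharpin (chr15:76347818-76347895, proximal intron): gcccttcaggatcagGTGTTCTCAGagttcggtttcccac
An acceptor still farther from the donor (intron from 76347790) also competes here. The acceptor at the end of the segment, whose intron runs from 76347808, held 12.0%, 7.14% and 8.0% in room air, and the 3 smoke libraries had 0%. The groups did not overlap, and limma gave a log2 odds difference of -3.43 (SE 0.45) with an adjusted p of 0.128, which was 0.04 among events with 6 values. The proximal acceptor held 84.0%, 92.86% and 92.0% in room air and 100%, 100% and 93.75% after smoke. Again every smoke value lay above every air value, the closest by under 1 point.

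Other events among the 10 donors with the lowest p had levels near an end of the scale. In Dynlt1f, a dynein light chain gene with near-identical copies that make its reads uncertain, an acceptor in the 3′ UTR (intron chr17:6647130-6649686, minus strand) held 6.9%, 6.45% and 6.67% in air and 0% in every smoke library (adjusted p = 0.128 in limma, 0.04 among events with 6 values). Araf, a kinase of the RAF family, had an acceptor in an unlisted event (intron chrX:20852029-20852595, plus strand) at 4.55%, 5.41% and 3.12% in air and 0% in all smoke libraries. Mospd3 had one (intron chr5:137598680-137599593, minus strand) at 6.25%, 2.94% and 6.25% in air and 0% in all smoke libraries. In all 3 genes every smoke library was listed at 0%, and the air libraries stood only a few points above it.

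The remaining 5 of these donors had no value in cigarette smoke replicate 1, so only 2 smoke libraries stand behind each. Kmt5c, a histone H4 methyltransferase, had 0% in the 3 air libraries and 10.0% and 7.69% after smoke. Taf12, a subunit of the general transcription factor TFIID, had a known 5′ UTR acceptor at 0% in air and 8.33% and 5.0% after smoke. Cdk11b, a kinase linked to transcription and splicing, had 92.86%, 91.67% and 95% in air and 100% in both smoke libraries. In these 3 genes both smoke values lay above all air values. Rnpepl1, an aminopeptidase-like gene, was at 100% in air and 92.86% and 94.55% after smoke. Zfyve27, which encodes protrudin of the endoplasmic reticulum, was at 5.26%, 9.09% and 6.67% in air and 0% in both. In the last 2 genes they lay below, and the adjusted p of the 5 in limma ran from 0.155 to 0.177.

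Among events of intermediate level, the largest separated differences were in known events, several of them tandem acceptors printed above. Rap1gds1 encodes an exchange factor for small GTPases. Its proximal acceptor held 70.97%, 66.67% and 75% in room air and 81.82%, 84.21% and 84.91% after smoke, means of 70.9% ± 4.17 and 83.6% ± 1.62 (SD, n = 3 each). All smoke values lay above all air values, with an adjusted p of 0.473 in limma. Trip10, an adaptor between Cdc42 and the actin skeleton, had 33.33%, 28.21% and 34.38% in air and 36.36%, 46.15% and 44.19% after smoke (adjusted p = 0.579 in limma). Appl2, an adaptor protein of early endosomes whose acceptors are 214 bases apart (proximal intron chr10:83601042-83601882, minus strand), had 67.27%, 70.24% and 75% in air and 83.33%, 84.62% and 75.51% after smoke (adjusted p = 0.526 in limma). In both, the lowest smoke library stood just above the highest air library.

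In the other direction, Map2k2, the ERK kinase MEK2, had 37.5%, 32.39% and 31.75% at its proximal acceptor in air and 19.05%, 23.91% and 29.92% after smoke (adjusted p = 0.559 in limma). Its total level was higher after smoke in the authors' deposited table, by 0.51 on the log2 scale at an adjusted p of 0.00457. Among the host genes of the events chosen by the naming rule, others past that threshold in the authors' deposited table were Hspbp1 (log2 difference 0.61, adjusted p 0.00432), Dbnl (0.31, adjusted p 0.0496), Ddx39b (0.25, adjusted p 0.0371) and Ncor1 (-0.39, adjusted p 0.00702). In bulk RNA a change of cell makeup and a change of RNA per cell cannot be told apart. Scyl2, a clathrin-associated pseudokinase, had 52.38%, 52.38% and 66.67% in air and 50%, 40.0% and 46.51% after smoke (adjusted p = 0.582 in limma). Each smoke library was below each air library in both genes, by the narrowest margin at 29.92% against 31.75% and 50% against 52.38%.

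In Tcf25, neighbouring acceptors stand 18 bases apart, which keeps the frame, and the segment between them is shown.
Tcf25 (chr8:123400698-123401057, proximal intron, plus strand): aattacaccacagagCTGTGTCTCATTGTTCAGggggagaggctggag
Further competing junctions of this event end at 123403146 and 123403149, so its level is not a share of the neighbouring acceptors alone. The acceptor at the end of the segment (intron end 123401075) held 61.11%, 68.42% and 63.79% in air and 56.0%, 50% and 55.21% after smoke. The means were 64.4% ± 3.70 and 53.7% ± 3.26 (SD, n = 3 each). The groups did not overlap, and the adjusted p in limma was 0.561.

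**Figure D5:**
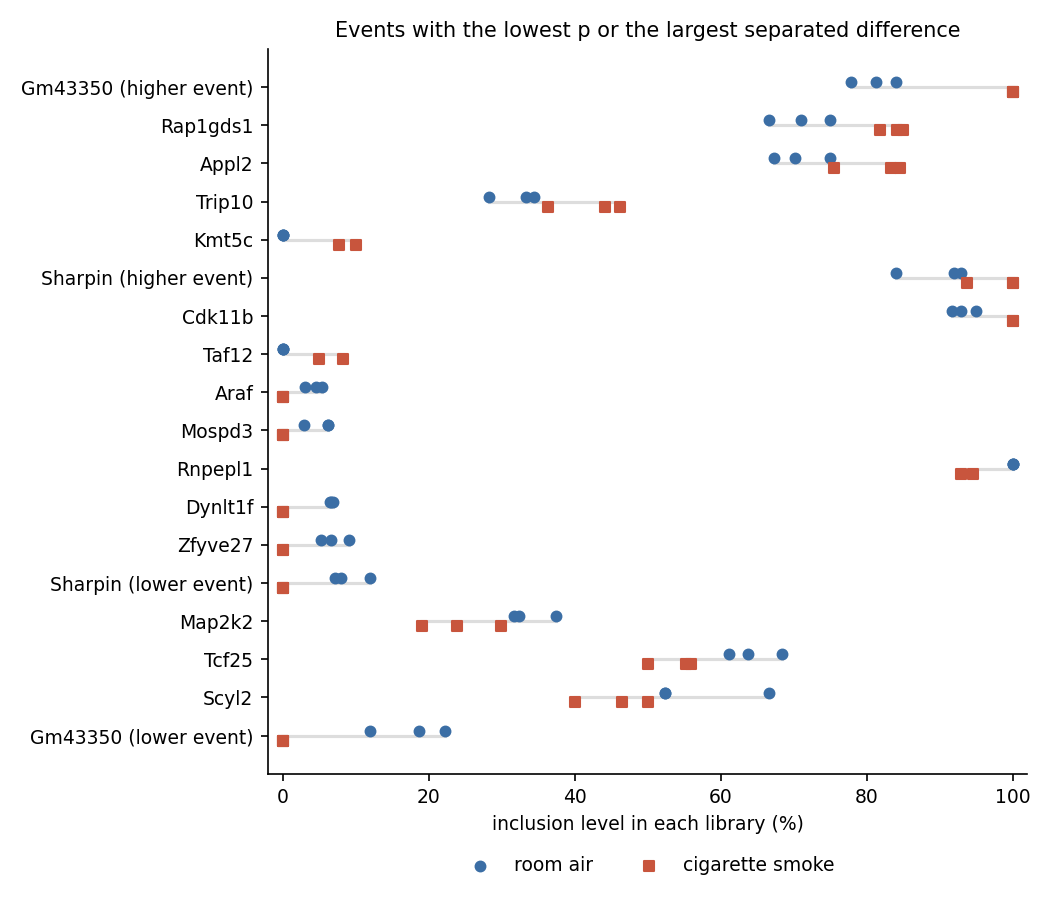
Inclusion level in percent in each library (horizontal axis) for the events with the lowest p or the largest separated difference (one row each, air circles set slightly above smoke squares), with a grey line over the range. Most rows near 0% or 100% have a group at the limit, and Rap1gds1, Trip10, Map2k2, Tcf25 and Scyl2 lie in between.

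Tandem acceptors with a mean level nearest 50% were chosen for that level, which is given as a description. Rasgef1b, an exchange factor for Ras-family GTPases that Toll-like receptor signals induce in macrophages, had 46.34%, 51.46% and 56.36% in air and 52.0%, 52.27% and 48.28% after smoke, so the groups overlapped throughout. Cic, the repressor capicua, had 56.25%, 46.0% and 45.0% in air and 63.64%, 50% and 43.84% after smoke at the proximal acceptor. Hspbp1, a cochaperone of Hsp70, had a 5′ UTR acceptor at 50%, 47.06% and 38.46% in air and 45.45%, 60% and 55.56% after smoke. The groups overlapped in all 3 genes.

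The widest ranges within room air, for which the next 5 events were chosen, are given as a description. A neighbouring acceptor of Hspbp1 ran from 10.0% to 38.46% over the 3 air libraries. Dbnl, a drebrin-like actin-binding protein, ran from 15.56% to 37.68%, and Ormdl2, a regulator of sphingolipid synthesis, from 46.15% to 67.74%. Chd3, a helicase of the NuRD complex, ran from 17.39% to 37.93%, and Fbxw17, an F-box gene, from 68.18% to 88.46%. Room air replicate 1 had the lowest of the 3 air values in all 5.

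Gene lists chosen for macrophages and splicing gave few low p-values and none that passed the adjusted threshold in limma. Splicing factor genes hosted the most, 65 events in 35 genes, of which 25 were tandem acceptors at 3 bases and 3 had an unadjusted p under 0.05, a share no higher than the 4.72% of these events and the 10.8% of all events. Over the 51 of them with 6 values the median difference was 0.71 points. Ddx39b, an RNA helicase of the spliceosome, had a 5′ UTR acceptor at 87.5%, 87.5% and 95.45% in air and 100%, 100% and 94.87% after smoke. Luc7l3, a U1-associated protein, had a junction of an unlisted event at 4.0%, 5.6% and 3.39% in air and 0%, 0% and 2.75% after smoke. Srsf7, an SR protein, had 11.11%, 14.29% and 6.67% in air and 0% and 4.76% in the 2 smoke libraries with a value. The Ddx39b groups overlapped, and those of Luc7l3 and Srsf7 did not. Rbm39, another splicing factor, had 53.49%, 48.33% and 61.54% in air and 50%, 35.71% and 53.26% after smoke. Hnrnpk, an RNA-binding protein of the hnRNP family, had 52.1%, 53.42% and 53.8% in air and 60.61%, 60.56% and 56.59% after smoke, with all smoke values above all air values.

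Innate sensing genes hosted 22 events, 1 with a low p (background 10.8%), with a median difference of -1.62 points over the 12 with 6 values. The low p among them was in Ikbke, a kinase that acts upstream of interferon induction, whose junction, of an unlisted event, held 3.7%, 3.45% and 6.9% in air and 0% in the 2 smoke libraries with a value. Irf7, the interferon regulatory factor, had an acceptor in an unlisted event at 43.48%, 41.61% and 43.06% in air and 48.39%, 53.33% and 40.99% after smoke. Irak1, a kinase downstream of Toll-like receptors, had 5.0%, 4.76% and 12.5% in air and 0%, 0% and 10.0% after smoke. The groups overlapped in Irf7 and Irak1 and did not in Ikbke.

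Interferon-stimulated genes hosted 17 events, 1 of them with a low p (background 10.8%), and a median difference of -0.88 points over 10. That event, in Oas2, a sensor of double-stranded RNA, had 14.71%, 19.61% and 22.5% in air and 6.67% and 7.69% in the 2 smoke libraries with a value. All its smoke values were below its air values. Samhd1, a nucleotide hydrolase that restricts viruses, had 49.04%, 54.84% and 54.55% in air and 42.11%, 42.55% and 57.26% after smoke. A 5′ UTR acceptor of Slfn5 had 11.76%, 22.64% and 20.29% in air and 18.18%, 23.08% and 26.32% after smoke. Both of these overlapped.

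Other lists were smaller. Against the same background of 10.8%, cytokine and receptor genes had 6 events, and both low p-values were at 1 donor of Csf2rb, the common beta chain of the GM-CSF receptor, whose reads a near-identical copy may share. Its minor acceptor held 5.88%, 2.74% and 1.85% in air and 0%, 0% and 1.43% after smoke. Lysosome and phagocytosis genes had 10 events and a low p in Gla, the lysosomal alpha-galactosidase, at 100%, 99.06% and 98.96% in air and 95%, 96.88% and 98.09% after smoke. Oxidative stress genes had 5 events and a low p in Gclm, a subunit of the enzyme that starts glutathione synthesis, at 100% in all air libraries and 91.67%, 95.65% and 97.14% after smoke. The groups did not overlap in these 3 genes, and the levels were all near an end of the scale. The median differences of the lists were 2.78 points over the 5 cytokine and receptor events with 6 values, -0.45 over the 9 lysosome events and -2.16 over the 4 oxidative stress events. Npc1, a lysosomal cholesterol transporter with a tandem acceptor, had 93.75%, 91.23% and 93.62% in air and 100%, 100% and 92.73% after smoke. Ncf4, a subunit of the phagocyte NADPH oxidase, had 12.2%, 18.64% and 14.52% in air and 11.76%, 3.85% and 12.04% after smoke. The groups overlapped in Npc1, and in Ncf4 every smoke value was below every air value.

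Antigen presentation genes (10 events), ribosomal and translation genes (12) and the genes of the chromatin list (26) had no event with a low p in limma. That list does not hold Kmt5c, described above among the lowest p-values, nor Chd3. Their median differences were -0.99 points over 9 events, 2.13 over 9 and 0.04 over 11. Eif4g1, a scaffold of translation initiation, had 98.25%, 95.1% and 94.9% in air and 100%, 82.86% and 92.31% after smoke, so the smoke libraries lay on both sides of the air libraries. The levels of H2-Q4 and H2-T24, class I genes with near-identical relatives, are uncertain. Ncor1, a nuclear receptor corepressor, had 45.0%, 33.93% and 40.82% in air and 15.38%, 43.75% and 34.55% after smoke, where cigarette smoke replicate 1 alone was far below the rest. Fcgr3, an Fc receptor with a tandem acceptor, had 89.94%, 86.71% and 92.05% in air and 80.0%, 88.46% and 86.88% after smoke. Chd4, a helicase of the NuRD complex, had 62.5%, 64.52% and 53.42% in air and 50%, 55.56% and 53.68% after smoke. The groups overlapped in all 3.

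The host genes' own expression was compared by the authors. Of the 1105 host genes, 1101 had an adjusted p in the authors' deposited table, and 56 were higher after smoke at an adjusted p under 0.05 (5.09%, background 4.15% of all genes tested) and 53 lower (4.81%, background 3.53%). The median log2 fold change of host genes in that table was -0.0062. Host genes had more normalized counts, not corrected for length, than the table as a whole, with a median of 416 over the 24 libraries of the authors' fit against 154 for all genes.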

How the data were processed

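For 6 RNA-seq libraries the authors deposited a table made by JuncBASE, a splicing event caller, with a percent inclusion level per event and library, medians, and the difference of medians. The p-values and corrected p-values in that table are the authors' own, and the test behind them, the program's version and any coverage filter are not given in the sources used here. As tools of the authors, the submitters' processing notes list STAR, DESeq2, SAMtools 1.9 and bedtools 2.27.1 and the build mm10, without their roles. The authors' deposited gene table gives, per the file headers, signal as means of normalized counts over 24 libraries and per group, of which 18 libraries were not analysed here. Its log2 fold changes, standard errors and Wald score come from the authors' fit. Loci came from the authors' merged annotation.

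The titles gave each library its group and number. Levels were tested as log2 odds, log2((p + 1)/(100 - p + 1)) for a level p in percent, so 1 point was added to either side. limma 3.58.1 (R 4.3.3) was fitted on all 10376 events with at least 2 values in each group, with a two-sided moderated test and Benjamini-Hochberg adjustment. A test on read counts, named as the choice for tables that hold them, could not be used. Levels near 0% and 100% of unknown depth can coincide by sampling, which makes the spread of such groups 0.

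Junctions were matched to introns of GENCODE M21 (GRCm38), and sequences read from its transcripts. Symbols came from annotated introns for 1657 events, from overlap for 16 and not at all for 2, and 38 events touch 2 or more genes. At least 1 locus of the authors' annotation overlapped 1668 events. The position of an event is that of the transcripts that use its annotated junctions.

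Named events are those at the 10 donors with the lowest p, the 5 donors with the largest separated difference in each direction, up to 3 events per gene list by largest difference, the 5 donors of widest range in room air, and up to 5 tandem acceptors nearest 50%. Low-p events of the lists that this rule leaves out (Luc7l3, Srsf7, Ikbke, Oas2 and Gla) were named after their values were seen. The members, lists and rules were chosen with earlier results of these data known.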

Additional observations from a re-analysis of the deposited data

How the results depend on the processing

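The count of events past the adjusted threshold was 0, and 31 of 1675 with a pseudocount of 0.1 points (1.85%, all events 2.32%), 1 on the percent scale (0.06%, all events 0.048%), 4 of 953 with only 6-value events (0.42%, all events 0.39%) and 2 of 786 with mean levels from 5% to 95% (0.25%, all events 0.095%). Leaving out single libraries gave 0 to 50, and only the fit without cigarette smoke replicate 3 was above 0. All 31 and all 50 had a group wholly at 0% or 100%. The 79 events with a low unadjusted p (4.72%) became 47 with only 6-value events (4.93%, all events 14.5%) and 23 at levels from 5% to 95% (2.93%, all events 11.4%). Without single libraries they were 51 (of 980, without cigarette smoke replicate 2, with 10.9% of all events) to 95 (of 974, without cigarette smoke replicate 3: 9.75%, all events 21.5%). The share with a low unadjusted p was below that of all events in every setting run. The median difference stayed between -0.09 and 0.27 points in every setting. The 99 of 953 events without overlap (10.4%) became 197 of 1675 with at least 2 values in each group (11.8%) and 53 of 493 at levels from 5% to 95% (10.8%). Without single libraries they were 152 (of 955) to 252 (of 1534), where the number of events and of values per group both differ. The share over all events is not given for these alternative settings, so their counts cannot be read against a background.

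Of the 54 events that the naming rule chose, 16 passed the adjusted threshold and 8 changed sign in some setting. The 54 include events of Hdac5, Csf2ra, Txnrd1 and Eif4g2, not described above, and leave out those named after their values were seen. Many were chosen for a low p or a large difference in these data, so the 16 have no background. With a pseudocount of 0.1, 12 passed, and without cigarette smoke replicate 3, 11 passed. In all of these a group stood wholly at an end of the scale. In no other setting did more than 4 pass. The log2 odds difference of Eif4g1 was 0.54 with a pseudocount of 0.1 and ran from -1.57 to 0.65 without single libraries. That of Hspbp1 was -0.012 with a pseudocount of 5, -1.87 points on the percent scale, -0.18 with array weights, and from -0.68 to 0.52 without single libraries. Without single libraries, Dbnl ran from -0.63 to 0.20, Ormdl2 from -0.44 to 0.20, Fbxw17 from -0.29 to 0.59, Rasgef1b from -0.17 to 0.11, and the Cic pair from -0.12 to 0.45 and from -0.40 to 0.17. The cause was not tested. With the replicate number as a block, limma gave 0 adjusted calls, as over all events. Low unadjusted p-values were then 77 of 1666 (4.62%, all events 7.73%). Deviations of same-numbered libraries correlated at 0.0077, -0.055 and -0.11, and those of differently numbered pairs at -0.069 to 0.15. Whether same-numbered samples share more than a number cannot be told from these values, and the labels do not state it.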
